A study of Mus musculus with 5 samples.

Results

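The regions described here are the 1 kb tiles of the mouse autosomes in which sheared chromatin, sequenced without any pull-down, was covered at least 5 times as deeply as the autosomal mean. Of 2472334 autosomal tiles, 1234 met this rule, and joining tiles at most 5 kb apart gave 870 blocks, 744 of them a single tile. The Input depth chose these tiles, so the Input depth itself and every ChIP/Input ratio below are descriptions without a test. The comparison of the 2 antibodies did not enter the rule and was tested.

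The data were ChIP-seq libraries for Pcgf6 from CCE cells, an established line of mouse embryonic stem cells (ESCs), grown with LIF and cross-linked with disuccinimidyl glutarate and paraformaldehyde. Pcgf6 was pulled down with an antibody from Santa Cruz (sc-160649, 2 libraries) or from Abcam (ab48010, 2 libraries), and 1 Input library had no antibody. All libraries came from this line, the labels name no other treatment or genotype, and no library without Pcgf6 or with an unspecific antibody was analysed here. The libraries held 22412700 autosomal fragments in the Input and 2240057 to 2790915 in the ChIP libraries. The 2 libraries of an antibody were largely the same fragments, at a shift of 1 or 15 bases. Their counts differed by less than sampling noise over autosomal tiles with at least 10 fragments (chi-square per degree of freedom 0.0809 for Santa Cruz and 0.085 for Abcam, where independent samples would give about 1), so their mean was used as 1 sample per antibody and no SD is given.

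Pcgf6 is the Polycomb RING finger subunit of a variant PRC1 complex that also holds the DNA-binding partners Mga and Max, which recognise the E-box. Polycomb complexes are mostly studied at promoters, and reads from repeated DNA are often set aside. Mouse centromeres are flanked by long tandem arrays of the major satellite, ribosomal RNA genes lie in arrays of many copies, and pieces of mitochondrial DNA have been inserted in nuclear chromosomes. A genome assembly holds only a few copies of such sequences, so reads from all their copies can land on the few that it holds.

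The tiles were grouped by sequence, with limits set after their values were seen. Satellite-like tiles (47) had at least 100 bases aligned to the block at 3.0 Mb of chromosome 9, which is itself among them, and mitochondrial-like tiles (18) had at least 100 bases aligned to the mitochondrial chromosome. A block of 7 tiles on chromosome 17 holds AY036118, a pseudogene that lies beside the 18S ribosomal RNA gene copy Rn18s-rs5 in the RefSeq gene table, and a block of 72 tiles on chromosome 11 holds Sfi1. Of the others, 72 were partly repeated, with fewer than 90% of their 36-base words present once in the assembly, and 1018 were single-copy by that measure. Most of the tiles were thus not repeated within the assembly, and whether they are collapsed repeats was not tested. The median 36-base word was found at least 2 times in the assembly in only 47 of the 1234 tiles (3.81%), against 10.2% of a fixed sample of 11964 autosomal tiles. A tile with a single copy in the assembly can still stand for many copies in the cells, which word counts cannot show.

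Sequences are printed for the satellite-like tiles because the similarity to the chromosome 9 block is what groups them. Apart from the first, they come from the tile with the highest ratios on each of 4 chromosomes, among those with at least 100 Input fragments. The first, from the chromosome 9 tile with the strongest tandem repeat, is the 234-base unit, and in the others capitals mark bases identical to it in the best alignment. All are from NCBIM37 (mm9).
Tandem unit of the chromosome 9 block, chr9:3027001-3027234, plus strand: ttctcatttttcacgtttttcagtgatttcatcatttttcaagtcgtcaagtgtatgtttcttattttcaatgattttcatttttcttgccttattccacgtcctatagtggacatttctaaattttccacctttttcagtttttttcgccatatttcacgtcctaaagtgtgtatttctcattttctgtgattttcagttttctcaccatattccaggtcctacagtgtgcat
Chromosome 2 block, chr2:98507256-98507489, minus strand: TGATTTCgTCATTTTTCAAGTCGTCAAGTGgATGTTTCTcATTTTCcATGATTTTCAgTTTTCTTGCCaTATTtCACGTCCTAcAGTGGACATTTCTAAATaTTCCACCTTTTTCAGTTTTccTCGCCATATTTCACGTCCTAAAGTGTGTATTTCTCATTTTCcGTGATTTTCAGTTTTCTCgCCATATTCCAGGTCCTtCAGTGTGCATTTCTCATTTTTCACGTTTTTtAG
Chromosome 9 stretch outside the block, chr9:35112801-35113000, minus strand: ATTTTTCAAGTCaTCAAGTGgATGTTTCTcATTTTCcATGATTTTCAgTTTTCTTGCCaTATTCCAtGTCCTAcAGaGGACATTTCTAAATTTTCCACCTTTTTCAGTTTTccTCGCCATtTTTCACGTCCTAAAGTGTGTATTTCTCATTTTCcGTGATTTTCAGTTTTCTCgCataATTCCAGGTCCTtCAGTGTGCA
Chromosome 4 stretch in Cdk5rap2, chr4:70039151-70039288, minus strand: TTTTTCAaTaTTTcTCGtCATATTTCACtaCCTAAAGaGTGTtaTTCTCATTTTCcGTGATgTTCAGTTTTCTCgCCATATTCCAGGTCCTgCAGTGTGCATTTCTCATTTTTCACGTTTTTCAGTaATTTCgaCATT
Chromosome 12 stretch, chr12:75905066-75905299, plus strand: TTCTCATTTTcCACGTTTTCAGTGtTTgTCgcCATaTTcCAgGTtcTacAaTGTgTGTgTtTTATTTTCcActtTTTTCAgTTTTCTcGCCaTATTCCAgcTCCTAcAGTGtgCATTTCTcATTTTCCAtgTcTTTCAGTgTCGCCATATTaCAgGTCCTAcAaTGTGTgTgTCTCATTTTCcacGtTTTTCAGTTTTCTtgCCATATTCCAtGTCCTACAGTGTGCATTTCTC
The chromosome 2 stretch was 93.6% identical to the unit, the chromosome 9 stretch 91%, the chromosome 4 stretch 88.4% and the chromosome 12 stretch 78.3%.

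Satellite-like tiles had the highest ChIP/Input ratios of the 6 groups with both antibodies. Over the 47 tiles, the ratio of fragments, scaled by autosomal totals, was 6.21 with Santa Cruz (exact 95% interval 5.96 to 6.46) and 5.3 with Abcam (5.09 to 5.52). In each of the 47 tiles the interval lay above 1 with both antibodies. Over the 2115607 autosomal tiles with an Input fragment it did so in 1.35% with Santa Cruz and in 1.37% with Abcam, but since the rule used the Input nothing is read from this. Single tiles lay between 2.53 and 8.96 with Santa Cruz, and with Abcam between 2.08 and 7.71, so no tile of this group was near the ratio of the whole autosomes. These tiles held 0.0278% of the Input fragments, 0.188% and 0.157% of the Santa Cruz fragments, and 0.161% and 0.134% of the Abcam fragments.

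**Figure D1:**
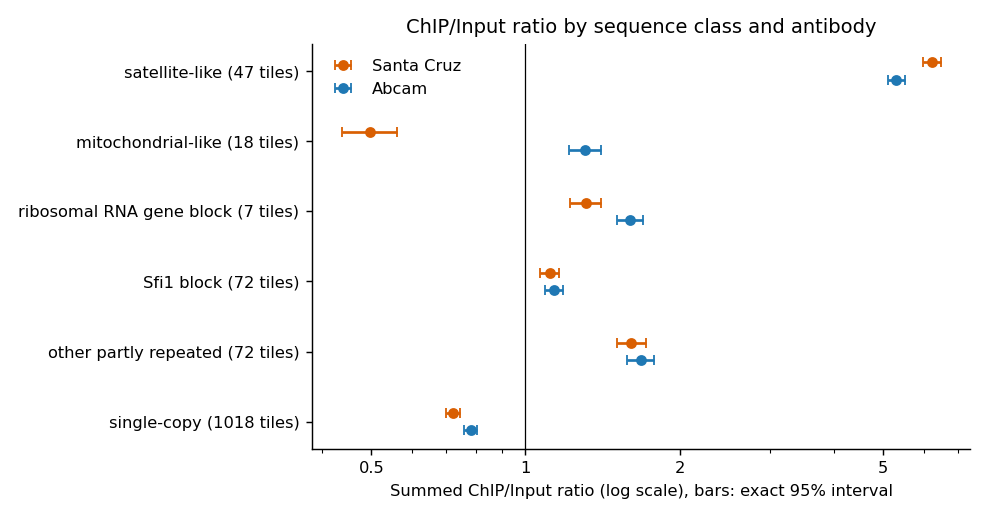
Summed ChIP/Input ratio (horizontal log axis) of the 6 sequence groups for Santa Cruz (orange) and Abcam (blue), with exact 95% intervals as bars. Satellite-like tiles stand at 6.21 and 5.3, single-copy tiles below 1, and only the mitochondrial-like group has the antibodies on opposite sides of 1.

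The block on chromosome 2 (chr2:98502001-98508000) holds the predicted genes Gm10801 and Gm10800 and had a mean Input depth over its 6 tiles of 30.9 times the autosomal mean. The same mean was 231 and 196 times in the Santa Cruz libraries and 197 and 170 times in the Abcam libraries. All ChIP libraries lay far above the Input, and in both antibodies replicate 1 was above replicate 2. The block's ratio was 6.91 (6.4 to 7.45) with Santa Cruz, against 5.94 (5.51 to 6.39) with Abcam. The 4 flanking tiles had a mean Input depth of 0.11 times the autosomal mean and no ChIP fragment. Of the tiles, 5 held 258 to 489 bases of satellite-like sequence. The remaining tile, chr2:98505001-98506000, held none and is counted as partly repeated, and it had the lowest ratios of the block (4.47 and 3.85).

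On chromosome 9 the 22 tiles between 3000001 and 3039000 begin at the first base after the assembly gap and fall in 2 blocks. They lie in the lincRNA gene Gm16869 and overlap predicted genes such as Gm10722, Gm11168, Gm10720, Gm10719 and Gm10715. The 18-tile block had a mean depth of 12.1 times the autosomal mean in the Input, 83.2 and 69.8 times with Santa Cruz, and 70.8 and 58.4 times with Abcam. The 4-tile block had 14.5 times in the Input, 96.9 and 70.6 times with Santa Cruz, and 81.6 and 64.2 times with Abcam. Over all 22 tiles the ratio was 6.23 (5.85 to 6.64) with Santa Cruz, against 5.28 (4.96 to 5.62) with Abcam. A further 17 tiles of the same region did not meet the rule, with an Input depth between 0 and 4.36 times the mean. These had a ratio of 4.94 (4 to 6.07) with Santa Cruz, against 4.52 (3.69 to 5.52) with Abcam. They were set apart by a lower Input, which is also the divisor of the ratio. Over all autosomal tiles below 0.5 times the Input mean, the ratio was 2.23 with Santa Cruz and 2.18 with Abcam. The values of the 17 tiles are therefore a description only.

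Satellite-like sequence outside these blocks was covered in the same way. The other 20 tiles, in 13 blocks, had ratios of 5.53 (5.15 to 5.94) with Santa Cruz, against 4.74 (4.42 to 5.09) with Abcam. Of the named blocks, the highest ratios were at chr9:35112001-35114000, a block with no annotated gene, with a Santa Cruz ratio of 8.61 (7.42 to 9.998) and an Abcam ratio of 7.07 (6.09 to 8.21). Its mean depth was 21.4 times the autosomal mean in the Input, 192 and 177 times with Santa Cruz, and 157 and 145 times with Abcam. The tile chr4:70039001-70040000 lies in Cdk5rap2, a gene for a centrosomal protein, and held 151 satellite-like bases. Its depth was 22.3 times the mean in the Input, 162 and 134 times with Santa Cruz, and 145 and 133 times with Abcam, which gave ratios of 6.65 (5.3 to 8.31) and 6.22 (5.01 to 7.71). In 11 satellite-like tiles at least 90% of the 36-base words occurred once in the assembly, and their ratios were 5.49 (5.01 to 6.02) and 4.76 (4.35 to 5.2).

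Within such tiles the fragments were concentrated on the satellite-like stretch. In all, 9 isolated stretches outside the 2 regions, with 126 to 321 aligned bases per tile, were lined up by their middle. The 200 bases before the middle had a fragment density of 40.6 times the autosomal mean in the Input, 292 and 251 times with Santa Cruz, and 239 and 216 times with Abcam. At 400 to 600 bases past the middle the densities were 1.78 times in the Input, 1.84 and 1.22 times with Santa Cruz, and 2.03 and 2.95 times with Abcam. The ratio was 6.68 (5.91 to 7.55) with Santa Cruz, against 5.59 (4.95 to 6.31) with Abcam in the 200 bases before the middle. At 400 to 600 bases past it, the ratio was 0.86 (0.136 to 3.03) and 1.41 (0.425 to 3.68), intervals that include 1. At 200 to 400 bases before the middle, on 39 Input fragments, it was 2.3 (0.981 to 4.83) and 2.51 (1.2 to 4.89). The excess in the Input thus fell off within 400 bases, while the ratios farther out were too imprecise to show where the excess of ChIP over Input ended. These are sums of fragments: chr9:35112001-35114000 and chr4:70039001-70040000 held 387 and 202 Input fragments, against 663 and 390 in the 200 bases before and after the middle of all stretches.

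**Figure D2:**
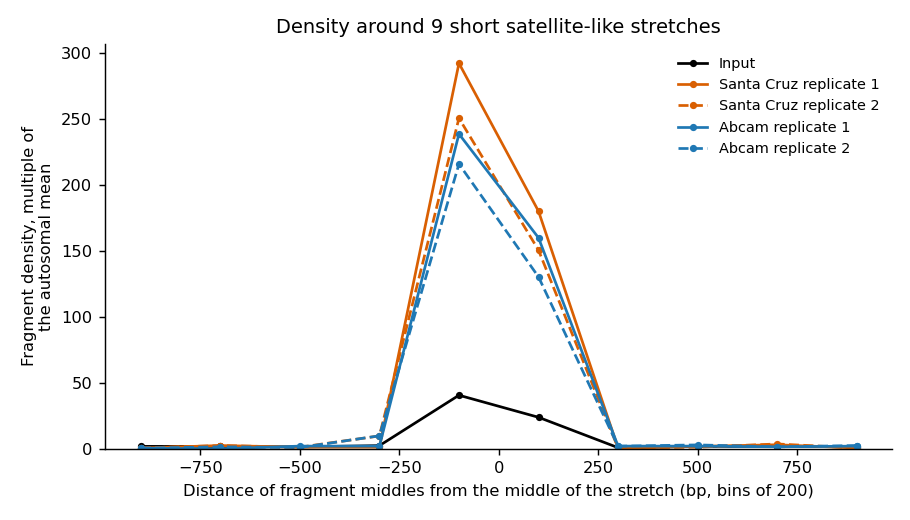
Fragment density (vertical axis, multiple of the autosomal mean) by distance of the fragment middle from the middle of 9 short satellite-like stretches, in bins of 200 bases, for the Input (black), Santa Cruz (orange) and Abcam (blue), with replicate 1 solid and replicate 2 dashed. All libraries peak over the stretch, the ChIP libraries at 216 to 292 times and the Input at 40.6 times, and lie at 3.66 times or less beyond 400 bases.

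In satellite-like tiles the replicates of an antibody also compared differently than in single-copy tiles. Scaled by library totals, replicate 2 held 0.835 times the fragments of replicate 1 in satellite-like tiles with Santa Cruz and 0.836 times with Abcam, against 1.01 in single-copy tiles with both. Only 43.1% of the Santa Cruz fragments of replicate 1 and 45.5% of the Abcam fragments were found again in replicate 2, against 86.4% and 87.5% in single-copy tiles. In the chromosome 17 block the shares were 55.2% and 56.8%, so a low share was not particular to satellite-like tiles. Over the 47 tiles, replicates differed with a chi-square per degree of freedom of 2.14 and 1.93, above sampling noise, so the 2 libraries of an antibody did not give the same values there. With replicate 1 alone the ratios were 6.77 and 5.78, and with replicate 2 alone 5.65 and 4.84. The lower counts of replicate 2 went with fewer crowded positions, 73.6% of Santa Cruz fragments against 81.4% in replicate 1, and the part of this in the difference was not tested.

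Positions in satellite-like tiles were also crowded. Of the Santa Cruz replicate 1 fragments there, 81.4% shared their position with another fragment, and of the Input fragments 79.1%, against 0.582% and 4.37% over all autosomal tiles. Of the Input fragments in the chromosome 17 block 88.3% did so, and in mitochondrial-like tiles 74.1%. In Santa Cruz replicate 1, 301 positions held 3 fragments, 333 held 4 and 1 held 5. In the Input 306 positions held 4 fragments, none held 5 and 1 held 6. The counts thus stop at about 4 fragments per position in these tiles. Whether a limit on reads per position lowered the depths was not tested. With 1 fragment counted per position the satellite-like ratios were 6 with Santa Cruz and 5.12 with Abcam. With replicates pooled and shared fragments counted once they were 8.46 and 7.06, above the intervals of the main count. The size of the ratio thus depended on how the replicates were joined. Whether fragments that share a position are independent molecules was not tested. The intervals treat them as independent and cover counting error only.

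The mitochondrial-like tiles were the only group of the 6 in which the antibodies lay on opposite sides of the Input. Stretches from the middle of 3 tiles are shown, because the closeness to mitochondrial DNA defines the group. They are oriented as the mitochondrial chromosome, and capitals mark bases that differ from it.
Chromosome 1 copy, chr1:24620441-24620560, minus strand: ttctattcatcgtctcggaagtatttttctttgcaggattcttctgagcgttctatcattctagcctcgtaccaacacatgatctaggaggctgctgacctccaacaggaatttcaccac
Chromosome 2 copy, chr2:22444441-22444560, minus strand: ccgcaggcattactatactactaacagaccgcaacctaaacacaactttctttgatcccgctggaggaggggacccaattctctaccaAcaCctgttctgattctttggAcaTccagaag
Chromosome 4 copy, chr4:79650441-79650560, plus strand: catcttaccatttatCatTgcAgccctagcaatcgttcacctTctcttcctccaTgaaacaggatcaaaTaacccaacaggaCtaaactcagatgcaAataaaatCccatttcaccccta
The first is 100% identical to the mitochondrial chromosome over its 120 bases, the second 96.7% and the third 92.5%. The 18 tiles lie in 10 blocks on 9 chromosomes, of which the largest is chr1:24618001-24623000 with the predicted genes Gm10222 and Gm10925. The others named for their Input fragments are chr2:22444001-22446000, which overlaps the unconventional myosin gene Myo3a and the pseudogenes Gm13340 and Gm13339, and chr4:79649001-79651000, which overlaps the pseudogenes Gm11407, Gm11408 and Gm11410.

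Over the 18 tiles, the ratio to the Input was 0.496 (0.438 to 0.56) with Santa Cruz, against 1.3 (1.21 to 1.4) with Abcam. The ratio of Abcam to Santa Cruz was 2.63 (2.29 to 3.02), and it was above 1 in 16 of the 18 tiles and 0.817 in both of the others. The exact interval of the ratio to the Input lay below 1 in 10 tiles with Santa Cruz and in 0 with Abcam, and above 1 in 0 tiles with Santa Cruz and in 7 with Abcam. Over all autosomal tiles with an Input fragment, 0.0223% lay below 1 with Santa Cruz and 0.0727% with Abcam. Since the rule used the Input, nothing is read from these counts of mitochondrial-like tiles. With 1 fragment counted per position, which removes 43.5% of the Input fragments in these tiles, the ratios were 0.819 with Santa Cruz and 2 with Abcam. The position of each antibody relative to the Input therefore moves by more than 1.5 times with that choice, while the ratio between antibodies was 2.44.

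Of the 7320 autosomal tiles with at least 10 fragments over both antibodies, 4 passed the two-sided exact binomial test of Abcam against Santa Cruz at an adjusted p of 0.05 (Benjamini-Hochberg over all 7320), which is 0.0546%. All 4 were among the 496 tiles with excess Input depth that were tested, all 4 were mitochondrial-like, and Abcam was higher in each. None was higher with Santa Cruz, where the unadjusted p was under 0.05 in 56 of the 7320 tiles (0.765%). At the unadjusted level Abcam was higher in 12 of the 17 mitochondrial-like tiles tested, against 2.54% of all tiles tested. The test compares the fragments of these libraries and not conditions.

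The tile chr2:22444001-22445000 held 896 fragments in the Input, 37 and 41 with Santa Cruz, and 145 and 151 with Abcam. Its ratio of Abcam to Santa Cruz was 3.1 (2.17 to 4.54, adjusted p = 3.08e-08 by the exact binomial test). The tile chr1:24620001-24621000 held 809 fragments in the Input, 27 and 25 with Santa Cruz, and 121 and 120 with Abcam, a ratio of 3.79 (2.46 to 6.03, adjusted p = 3.08e-08 by the same exact test). The 2 libraries of an antibody are largely the same fragments, so their closeness in these tiles is no replication. The tile chr4:79650001-79651000 held 538 fragments in the Input, 20 and 22 with Santa Cruz, and 94 and 109 with Abcam, a ratio of 3.95 (2.45 to 6.66, adjusted p = 1.84e-07 by the exact test). The tile chr1:24618001-24619000 held 305 fragments in the Input, 15 and 12 with Santa Cruz, and 62 and 63 with Abcam, a ratio of 3.78 (2.08 to 7.41, adjusted p = 0.0026 by the exact test).

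Tiles that were mitochondrial-like in full and in part both had more Abcam fragments. In the 8 tiles with at least 90% of their bases aligned the ratio of Abcam to Santa Cruz was 2.57 (2.2 to 3.02), and in the 10 others it was 2.81 (2.12 to 3.76), intervals that overlap. Among the named blocks it was 2.36 (1.91 to 2.94) on chromosome 1, 2.78 (2.09 to 3.75) on chromosome 2 and 3.26 (2.31 to 4.7) on chromosome 4. The mean Input depth of these blocks was 52.3, 67.2 and 47.3 times the autosomal mean. On chromosome 1 the Santa Cruz libraries stood at 27.4 and 25.3 times and the Abcam libraries at 63.2 and 61.1 times. On chromosome 2 they stood at 31.9 and 33.7 times against 95 and 93.2 times, and on chromosome 4 at 22.5 and 22.8 times against 71.1 and 77.5 times. The mitochondrial chromosome itself was not analysed here.

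**Figure D3:**
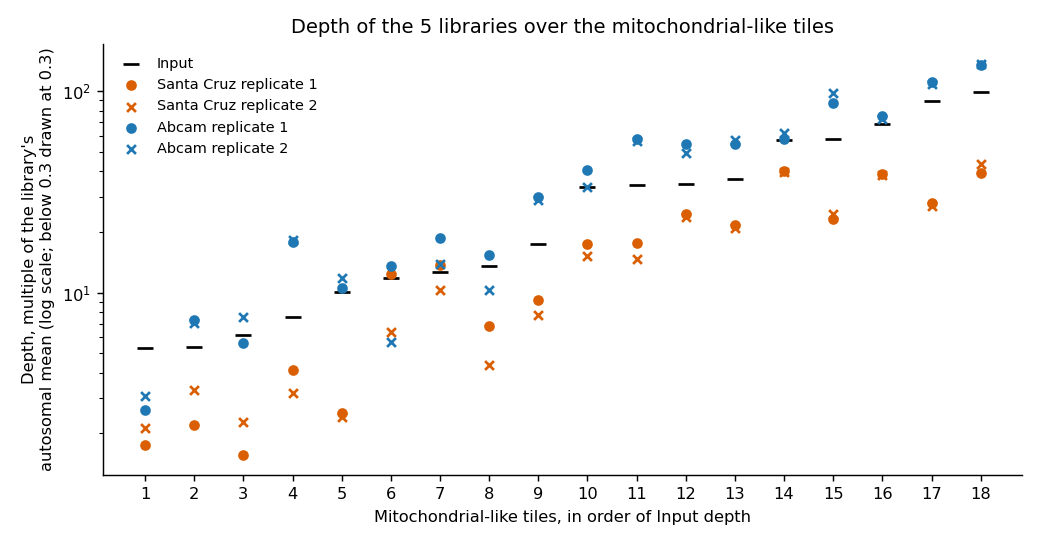
Depth of the Input (black dashes), Santa Cruz (orange) and Abcam (blue) libraries, as a multiple of each library's autosomal mean on a log axis, over the 18 mitochondrial-like tiles in order of Input depth, with replicate 1 as circles and replicate 2 as crosses. In most tiles the Abcam points lie at or above the Input dash and the Santa Cruz points below it.

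The block on chromosome 17 was the deepest. Its 7 tiles (chr17:39979001-39986000) had an Input depth of 5.05 to 192 times the autosomal mean. Part of the deepest tile is shown for its CpG content, with the 19 CpGs in capitals.
Chromosome 17 stretch, chr17:39981441-39981560, plus strand: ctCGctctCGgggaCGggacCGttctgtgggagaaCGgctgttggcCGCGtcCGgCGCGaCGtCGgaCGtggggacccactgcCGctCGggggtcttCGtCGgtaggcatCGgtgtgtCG
The mean depth of the block was 113 times in the Input, 151 and 147 times with Santa Cruz, and 184 and 180 times with Abcam. All ChIP libraries were above the Input, and Abcam above Santa Cruz. The ratio was 1.31 (1.22 to 1.4) with Santa Cruz, against 1.6 (1.51 to 1.7) with Abcam. Abcam against Santa Cruz gave 1.22 (1.12 to 1.33) and exceeded 1 in 7 of 7 tiles, but no tile passed the adjusted threshold. In 3 tiles Abcam was higher at an unadjusted p under 0.05 by the exact binomial test, beside 2.54% of all tiles tested. With 1 fragment per position, the ratios to the Input were 2.44 and 2.78, more than 1.5 times higher, since 56.3% of the Input fragments there repeat a position. The size of the excess over the Input in this block thus moved with how repeated positions are counted. The annotated gene AY036118 touches only the last tile.

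The block at the start of chromosome 11 (chr11:3027001-3100000) held the most Input fragments, 20046 in 72 tiles. It spans Sfi1, whose product binds centrin at centrosomes, with Pisd-ps1, Drg1, Fau-ps2 and predicted genes. Its Input depth was 5.59 to 95.5 times the autosomal mean. The mean over the block was 30.7 times in the Input, 34.4 and 34 times with Santa Cruz, and 35.4 and 34.6 times with Abcam, so the ChIP libraries followed the Input closely. The ratio was 1.11 (1.07 to 1.16) with Santa Cruz, against 1.14 (1.09 to 1.18) with Abcam, and the antibodies differed by a factor of 1.02 (0.966 to 1.08). The interval lay above 1 in 5 of its 72 tiles with Santa Cruz and in 7 with Abcam. Over all autosomal tiles with an Input fragment it did so in 1.35% and 1.37%, and nothing is read from these counts. The share of all autosomal tiles above 1 with both antibodies is not given here. Both antibodies had an interval above 1 in 2 of its tiles, singled out here after their values were known. These adjoin each other at chr11:3092001-3094000, where the annotated start of Sfi1 falls, and had ratios of 1.68 and 1.48 with Santa Cruz and 1.77 and 1.7 with Abcam. With 1 fragment counted per position the block's ratios were 1.47 with Santa Cruz and 1.49 with Abcam, above the intervals given here. By the same count the satellite-like tiles had ratios of 6 and 5.12. Sfi1 tiles and satellite-like tiles had median Input depths of 30 and 11.4 times the mean.

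**Figure D4:**
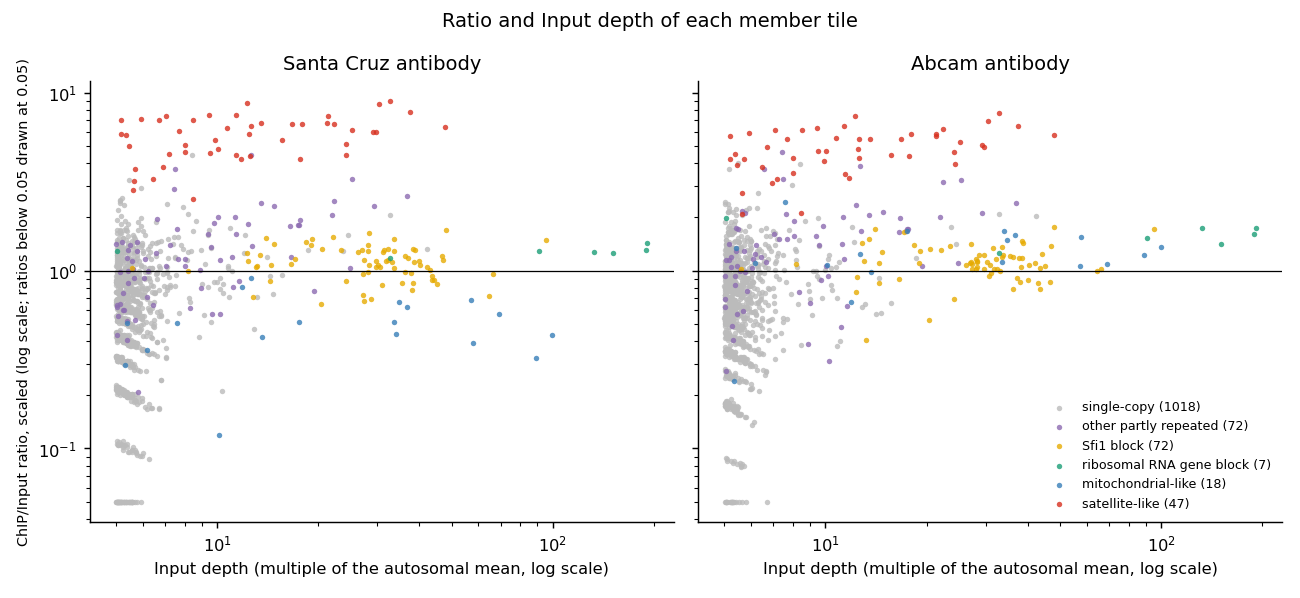
ChIP/Input ratio (vertical, log axis) against Input depth (horizontal, log axis) for each of the 1234 tiles, for Santa Cruz (left) and Abcam (right), coloured by sequence group. Satellite-like tiles (red) form a band between about 2.08 and 8.96 across their Input depths, Sfi1 tiles (yellow) lie around 1, and single-copy tiles (grey) gather at 5 to 6 times the Input mean with ratios mostly below 1.

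The 72 partly repeated tiles had ratios of 1.61 (1.51 to 1.72) with Santa Cruz, against 1.68 (1.58 to 1.78) with Abcam. The interval lay above 1 in 17 of them with Santa Cruz, in 23 with Abcam and in 16 with both. Over all autosomal tiles with an Input fragment it did so in 1.35% (Santa Cruz) and 1.37% (Abcam). The share with both is not given here, and nothing is read from these counts. The tiles above 1 with both included chr15:74916001-74918000, which had an Input depth of 36.9 and 25.3 times the mean. Their Santa Cruz ratios were 2.61 and 3.26 and their Abcam ratios 2.4 and 3.23. This pair of tiles was chosen after its values were seen. No gene is annotated in them.

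The 1018 single-copy tiles were mostly shallow and GC-rich. Of these, 847 lay below 6 times the Input mean and 23 at 10 times or more. Their median GC content was 56.7%, against 41.6% in the sampled tiles. A protein-coding transcription start lay in 333 of them (32.7%), against 0.802% of sampled tiles and 22.6% of the 8142 tiles with an Input depth of 4 to 5 times the mean. The E-box CACGTG, which reads the same on both strands, was found in 19.6% of them, against 9.44% of sampled tiles and 19.8% of the tiles at 4 to 5 times. The E-box share was thus close to that of the tiles just outside the rule, while protein-coding starts were more frequent in the single-copy tiles. The 3 tiles just inside it had 45, 45 and 46 Input fragments, Santa Cruz ratios of 0.333, 0.665 and 0.868 and Abcam ratios of 0.544, 0.816 and 0.798. The 3 just outside had 45, 46 and 47 Input fragments, Santa Cruz ratios of 0.665, 0.434 and 0.743 and Abcam ratios of 0.272, 0.355 and 0.694.

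The single-copy tiles had ratios below 1, at 0.722 (0.699 to 0.746) with Santa Cruz, against 0.781 (0.759 to 0.804) with Abcam. The tiles were chosen for a high Input, so a ratio below 1 is not read as a loss of ChIP signal. Over all autosomal tiles below 5 times the mean the ratio fell with Input depth. It went from 1.29 (Santa Cruz) and 1.28 (Abcam) in tiles at 0.5 to 1 times the mean to 0.658 and 0.707 at 4 to 5 times. Above that, over tiles of all groups, it was 0.692 and 0.761 at 5 to 6 times and 1.33 and 1.3 at 6 to 10 times. Among single-copy tiles the ratio rose with depth. It was 0.646 (Santa Cruz) and 0.719 (Abcam) below 6 times, 0.895 and 0.898 at 6 to 10 times, and 1.17 and 1.23 at 10 times or more. In tiles with a protein-coding start the ratios were 0.659 and 0.75, and in the others 0.75 and 0.796.

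Chromosome 6 held 383 of the 1018 single-copy tiles and 6.05% of all autosomal tiles. Its mean depth was 1.24 times the autosomal mean in the Input and 1.26 to 1.27 times in the ChIP libraries, and it was 1.39 times for chromosome 11 in the Input, the highest of the 19 autosomes. When each chromosome's own mean Input depth was used in the rule, an alternative chosen after the data were seen, chromosome 6 had 40 tiles of any group instead of 392, and 1259 tiles qualified over all autosomes. Chromosome 11, though deeper, held 105 single-copy tiles, so the number of tiles did not follow the depth of the chromosome alone.

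Of the 1018 single-copy tiles, 15 had an interval above 1 with Santa Cruz and 25 with Abcam, beside 1.35% and 1.37% of all autosomal tiles with an Input fragment, and nothing is read from these counts. In 8 of the 1018 the interval lay above 1 with both antibodies, and 4 of these hold a protein-coding start, singled out here after their values were known. The share of all autosomal tiles above 1 with both antibodies is not given here, so nothing is read from the 8 either. The tile at the shared start of Ube2q1, a ubiquitin-conjugating enzyme, and 4632404H12Rik held 51 Input fragments, 17 and 16 with Santa Cruz, and 24 and 26 with Abcam, with ratios of 3.23 (1.73 to 5.72) and 4 (2.37 to 6.58). The tile at the start of 1700012A16Rik held 46 Input fragments, 13 and 10 with Santa Cruz, and 21 and 21 with Abcam, with ratios of 2.5 (1.18 to 4.84) and 3.72 (2.11 to 6.37). The tile at the start of Elovl4, a fatty acid elongase, held 53 Input fragments, 14 and 17 with Santa Cruz, and 14 and 15 with Abcam, with ratios of 2.92 (1.54 to 5.22) and 2.23 (1.16 to 4.05). The tile at the starts of Spcs2, a signal peptidase subunit, and Xrra1 held 49 Input fragments, 12 and 12 with Santa Cruz, and 13 and 14 with Abcam, with ratios of 2.44 (1.18 to 4.66) and 2.25 (1.13 to 4.17). The intervals of the antibodies overlapped in each, and none of these tiles passed the test between antibodies.

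The named blocks that were mostly single-copy had ratios near or below 1. The longest was chr1:90126001-90175000 with 35 tiles, over Hjurp, a chaperone of the centromeric histone, Trpm8, a cold-sensing channel, and Heatr7b1. It had ratios of 0.755 (0.633 to 0.896) with Santa Cruz, against 0.871 (0.75 to 1.01) with Abcam. At chr7:38961001-38987000, which holds 1600014C10Rik, the 18 tiles had ratios of 1.01 (0.857 to 1.19) and 0.865 (0.735 to 1.01). At chr11:116611001-116620000, over the sialyltransferase gene St6galnac1, the 9 tiles had ratios of 0.814 (0.628 to 1.04) and 0.747 (0.585 to 0.943).

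The 5 blocks with the lowest ratios, chosen for that, were all mostly or wholly single-copy. The lowest Abcam ratio was at chr6:125110001-125122000, over Gapdh, the glycolytic enzyme, with Iffo1 and Ncapd2. Its 4 tiles had a mean depth of 5.72 times in the Input, 3.45 and 3.45 times with Santa Cruz, and 1.67 and 1.93 times with Abcam, with ratios of 0.557 (0.283 to 0.993) and 0.285 (0.117 to 0.583). At chr17:31037001-31052000, over the incretin receptor gene Glp1r, the 9 tiles had ratios of 0.519 (0.327 to 0.785) and 0.641 (0.442 to 0.903). The others lay at Glo1, a glyoxalase, at Alad, an enzyme of haem synthesis, with Bspry and Hdhd3, and at Pdia5, a protein disulfide isomerase. Their ratios lay between 0.657 and 0.759, with intervals that include 1.

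**Figure D5:**
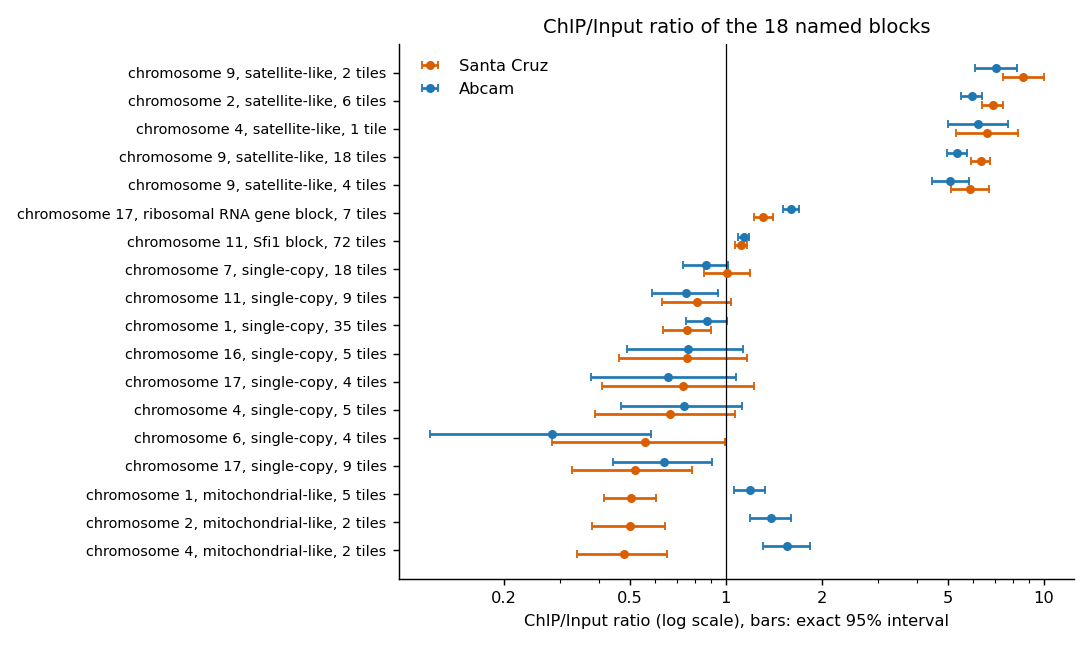
ChIP/Input ratio (horizontal log axis) of the 18 blocks named by rule, in order of the Santa Cruz ratio, for Santa Cruz (orange) and Abcam (blue) with exact 95% intervals, labelled by chromosome, by the group of most of their tiles and by the number of tiles. The 5 satellite-like blocks lie between 5.09 and 8.61, the mitochondrial-like blocks at 0.478 to 0.503 with Santa Cruz, against 1.19 to 1.56 with Abcam, the ribosomal RNA gene and Sfi1 blocks between 1.11 and 1.6, and the single-copy blocks around or below 1.

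Over all 1234 tiles the summed ratio was 1.23 (1.21 to 1.26) with Santa Cruz, against 1.28 (1.26 to 1.31) with Abcam, and Abcam against Santa Cruz gave 1.04 (1.02 to 1.07). The sums joined groups with different ratios. The tiles held 0.444% of the Input fragments, 0.566% and 0.531% of the Santa Cruz fragments, and 0.587% and 0.555% of the Abcam fragments. Without the 47 satellite-like tiles, the summed ratios were 0.901 with Santa Cruz and 1.02 with Abcam, and Abcam against Santa Cruz gave 1.13. Intervals lay above 1 in 89 tiles with Santa Cruz and in 114 with Abcam, and below 1 in 80 and 70 tiles. These stand beside the background shares given above, and nothing is read from the counts.

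In satellite-like tiles Abcam was lower than Santa Cruz in 43 of 47 tiles, which are not replicates, with a summed ratio of 0.854 (0.817 to 0.892). Replicate 2 against replicate 1 differed by as much there, at 0.835 with Santa Cruz and 0.836 with Abcam. Chi-square per degree of freedom was 2.14 and 1.93 within an antibody, and 1.52 between antibodies in replicate 1. The value of 0.854 is therefore not read as a difference between the antibodies. No satellite-like tile passed the test between antibodies. Santa Cruz was higher in 2 at an unadjusted p under 0.05 by the exact binomial test, beside 0.765% of all tiles tested. The summed ratio was 0.848 (0.791 to 0.908) in the chromosome 9 region, 0.859 (0.792 to 0.932) in the chromosome 2 block and 0.857 (0.791 to 0.929) in the other satellite-like tiles, so the 3 sets were alike within their intervals. It was 0.854 with replicate 1 alone and 0.855 with replicate 2 alone, which are not independent libraries. In single-copy tiles, Abcam against Santa Cruz gave 1.08 (1.04 to 1.13), and 0 of the 292 tested passed.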

How the data were processed

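The submitters' processing notes name Bowtie 0.1.2.7 and mm9 (NCBIM37). For each library the authors deposited a signal track, coverage in whole numbers with every read lengthened to 300 bases, neither scaled nor divided by the Input. Strand, mapping filter and treatment of duplicates are not given in the sources used here. Fragments were recovered from rises and falls 300 bases apart (1.33% of falls unmatched in the Input, at most 0.196% in the ChIP libraries), placed at their middle in 1 kb tiles and scaled by autosomal totals. Replicates of an antibody were averaged. Ratios carry exact Clopper-Pearson 95% intervals. Antibodies were compared by a two-sided exact binomial test on means rounded to whole numbers, with Benjamini-Hochberg adjustment. Sequence was compared with BLAST+ 2.17.0 (E at most 1e-10) and by 36-base words, genes taken from GENCODE for NCBIM37, and background features from every 200th tile. The names of genes beside AY036118 come from a RefSeq table on GRCm38.p6.

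Members and lists were chosen with earlier results of these data known. The blocks named are those on chromosomes 2 and 9, the 10 with most Input fragments, the 5 with the highest and the 5 with the lowest ratio among blocks with at least 20 expected fragments, and up to 5 tiles in each direction between antibodies. Alternatives were each replicate left out, 1 fragment per position, pooled replicates, scaling by the median 10 kb ratio, limits of 3 and 10 times, fewer or more fragments tested, and 50-base words. Fragment recovery and the test between antibodies were tested on simulated data. The tools were scipy 1.17.1, numpy 2.4.6, numba 0.67.0, pandas 2.3.3 and Python 3.11.15. There are no independent replicates, and the p-values measure the difference between these libraries.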

Additional observations from a re-analysis of the deposited data

Results flagged for a closer look

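The antibodies differed past the threshold in 4 tiles, all mitochondrial-like and all higher with Abcam. The ratios of Abcam to Santa Cruz were 3.1 at chr2:22444001-22445000, 3.78 at chr1:24618001-24619000, 3.79 at chr1:24620001-24621000 and 3.95 at chr4:79650001-79651000 (two-sided exact binomial test, adjusted over 7320 tiles).

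The sex chromosomes were outside the comparisons above. By the same limit on the autosomal scale, 17 tiles of chromosome X and 56 of chromosome Y had excess Input depth, up to 28.4 and 56.1 times the autosomal mean. Their ChIP/Input ratios were 1.5 (1.29 to 1.75) with Santa Cruz, against 1.61 (1.41 to 1.84) with Abcam on chromosome X. On chromosome Y they were 1.78 (1.68 to 1.87) with Santa Cruz, against 1.7 (1.62 to 1.78) with Abcam.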

How the results depend on the processing

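The summed ChIP/Input ratio over all tiles depended on which tiles were summed. It was 0.703 (Santa Cruz) and 0.732 (Abcam) with tiles at 3 times the Input mean, below 1, and 1.73 and 1.79 with tiles at 10 times. Without the chromosome 2 and 9 blocks it was 0.999 and 1.1, with Abcam against Santa Cruz at 1.1, and without every satellite-like tile, an alternative chosen after the data were seen, 0.901 and 1.02, with Abcam against Santa Cruz at 1.13. Pooling replicates with shared fragments once gave 1.45 (Santa Cruz) and 1.48 (Abcam). For Abcam, 1 fragment per position gave 1.31 and the median 10 kb scaling 1.26. Leaving out a replicate gave 1.19 to 1.27 (Santa Cruz) and 1.25 to 1.32 (Abcam). At 3 and 10 times, tiles with an interval above 1 numbered 448 and 53 with Santa Cruz and 658 and 64 with Abcam, and tiles below 1 numbered 472 and 12 with Santa Cruz and 1538 and 5 with Abcam. Without satellite-like tiles, 42 (Santa Cruz) and 67 (Abcam) lay above 1. Tiles that passed between the antibodies numbered 3 to 6 under the alternatives, with 3 where at least 5 fragments were asked for, and 6 where at least 20 were or replicates were pooled. Of the 36 ratios of named blocks, 10 moved outside their interval with 1 fragment per position, 4 without replicate 1 and 3 without replicate 2, and none changed direction. With 50-base words, 39 tiles instead of 47 had a median word found at least 2 times. No paired analysis was possible because the 2 libraries of an antibody are largely the same fragments, and the Input is a single library. Depth limits the test between antibodies, since only 496 of the 1234 tiles held at least 10 fragments over both.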
